A study of Mus musculus with 8 samples.

Results

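Axon guidance genes encode 4 ligand and receptor systems: semaphorins with plexins, Slits with Robos, netrins with Unc5 receptors, and ephrins with Eph receptors. Members were taken by a rule on gene symbols, which uses no measured values but was chosen with earlier results of these data known. That gave 66 of the 36048 rows of the deposited gene table under 65 symbols, because Ntn5 is listed under 2 identifiers. The study sequenced RNA of satellite cells (SC, n = 2, numbered 1 and 3), the stem cells of muscle, of endothelial cells (EC, n = 3), which line its vessels, and of single muscle fibres (SMF, n = 3), the contractile cells. SC and EC had been sorted from mouse hindlimb muscle, each library from about 100000 cells. An SMF library held 100 undamaged fibres of the extensor digitorum longus, chosen by hand 3 h after isolation. For none of the groups do the labels give a strain, genotype, age or treatment, and they name no sort markers. Isolation and muscle of origin cannot be told apart from the difference between SMF and the sorted cells. The labels say that 1 sample missed the RNA quality limit and do not name it. No label ties replicates to different animals. The p-values therefore reflect how these libraries scatter, and that scatter could be technical.

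Guidance cues were first studied in growing nerve fibres, where a ligand on or from a neighbouring cell attracts or repels the growth cone through its receptor. The same families act outside the nervous system: Efnb2 marks arteries and Ephb4 veins, Plxnd1 and Unc5b shape growing vessels, and semaphorins reach the motor nerve ending from muscle. Secreted class 3 semaphorins mostly need a neuropilin coreceptor beside a plexin, while ephrins stay on the cell surface and signal on contact.

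Levels are deposited FPKM values, which scale a gene's fragments by its length and by the library total. The test took the 16700 genes with 2 or more libraries at or above 1 FPKM. Log2 differences and their SE are on the log2(FPKM + 1) scale from limma, with Benjamini-Hochberg adjusted p-values over all genes tested and calls at an adjusted p under 0.05. Aligned bases were inferred for each library from the median ratio of deposited transcript coverage to transcript FPKM. They came to 277.9 to 367.8 Mb in SC and EC libraries and 525 to 581 Mb in SMF libraries. With 100 bases assumed for each fragment, 1 fragment on a transcript of 1 kb was worth 0.272 to 0.360 FPKM in SC and EC. In SMF it was worth 0.172 to 0.190 FPKM, so levels below these rest on very few fragments. The labels give reads of 50 bases, and fewer bases for each fragment would lower these values. Satellite cell markers summed to 749 to 786 FPKM in SC, 1.09 to 3.92 FPKM in EC and 16.0 to 21.0 FPKM in SMF. Endothelial markers summed to 17.1 to 23.4 FPKM in SC, 1009 to 1069.8 FPKM in EC and 2.81 to 3.38 FPKM in SMF, and fibre markers to 158 to 251, 10.8 to 18.7 and 30533 to 32717 FPKM in SC, EC and SMF. Each label thus carried its own markers, and the satellite cell markers Pax7, Calcr and Fgfr4 were listed at 0 in every EC library. The median of all genes tested lay 0.11 higher in SC than EC, 0.93 higher in SC than SMF and 0.85 higher in EC than SMF on the log2 scale, and differences from SMF are best read against these medians.

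Of the 66 members, 36 were tested and 30 stayed under the filter. Against EC, SC had 5 members higher and 17 lower, or 13.9% and 47.2% of those tested, where 21.2% and 16.4% of all genes tested were higher and lower. Against SMF, SC had 23 members higher and 3 lower, with 56.5% and 8.57% of all genes in those directions. EC had 30 members higher than SMF and 3 lower, where the shares over all genes were 55.5% and 10.8%. The median difference of the tested members was -0.73 for SC minus EC, 1.06 for SC minus SMF and 2.11 for EC minus SMF. A member passes the filter if it is high in a single population, so these counts and medians describe the 36 tested members and not the 66. With no filter, the medians over the 66 members were 0.06 for SC minus EC, 0.50 for SC minus SMF and 0.52 for EC minus SMF. Those over all 36048 genes were then 0.14, 0.39 and 0.21. The comparisons share libraries. In such bulk libraries, fewer cells that carry an RNA and less RNA per cell cannot be told apart.

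Put together, 17 members were above both other populations in EC, as were 15.2% of all genes tested. They are the receptors Ephb4, Epha4, Robo4, Unc5b, Plxnd1 and Plxna4 and the ligands Efna1, Efnb1, Efnb2, Slit3, Sema3d, Sema3f, Sema3g, Sema4c, Sema6b, Sema6d and Sema7a. SC were above both in 5 members (17.5% of all genes), the receptors Robo1, Unc5a and Plxnb2 and the ligands Ntn4 and Sema3b. SMF were above both in 3 members (7.12% of all genes), the ligands Sema3c, Sema4d and Sema6c. In 9 members SC and EC were each above SMF with no call between SC and EC (26.9% of all genes): Sema6a, Sema3a, Sema4b, Plxna1, Plxna2, Ntn1, Epha1, Epha2 and Ephb1. The remaining 2, Robo3 and Sema5a, were called only for EC against SMF.

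**Figure D1:**
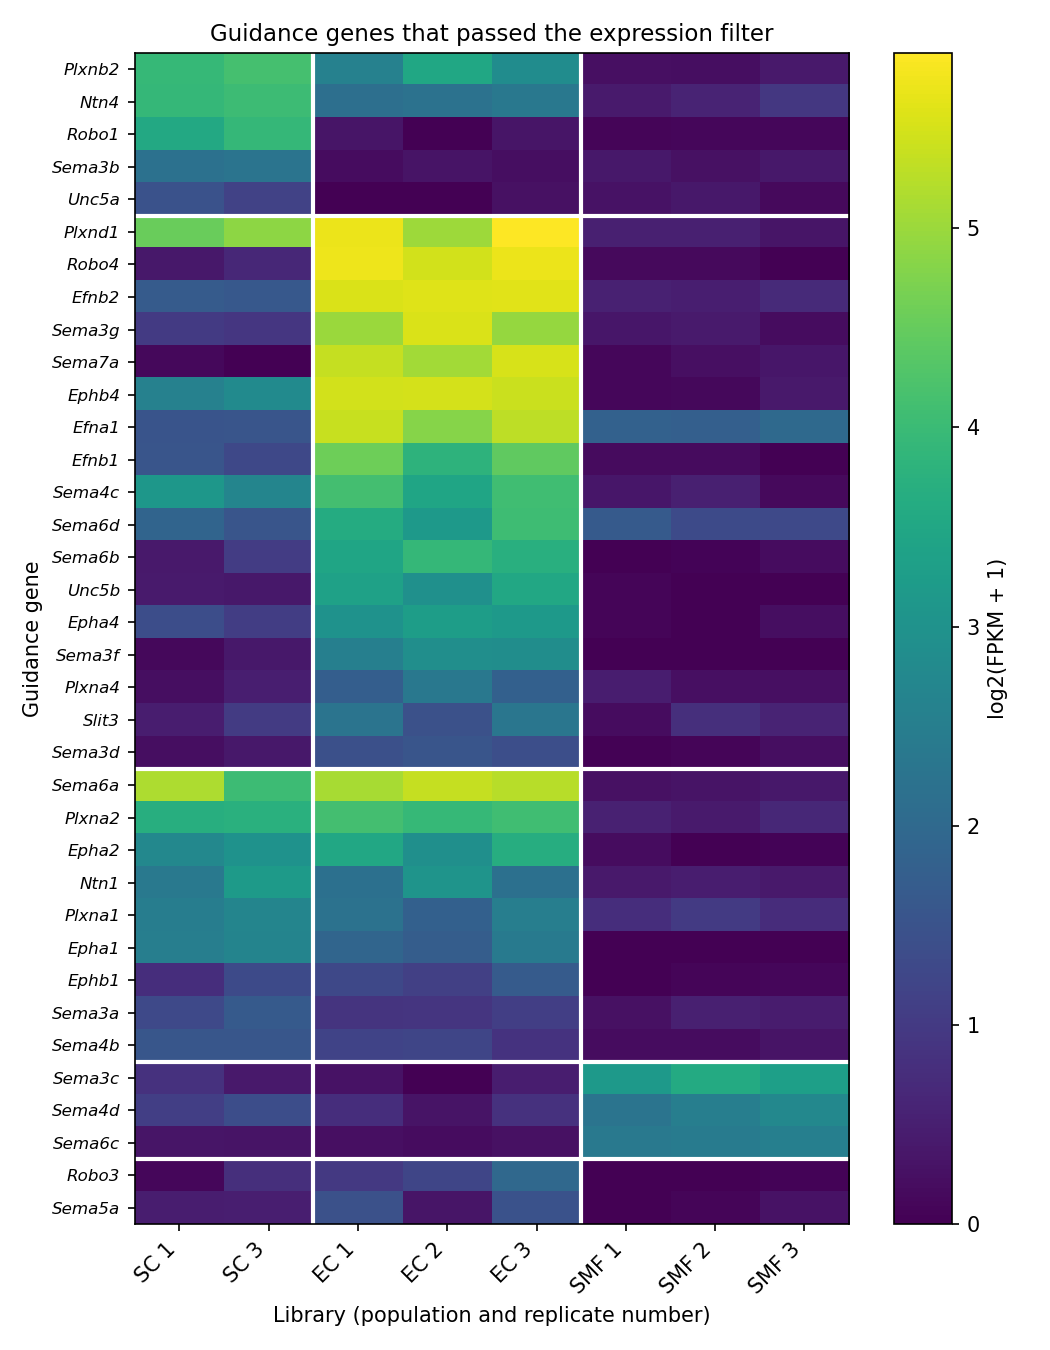
Level of the 36 tested guidance genes as log2(FPKM + 1), colour, in each of the 8 libraries, columns, with white lines between populations and between groups of genes that share a pattern of calls. From the top the groups are SC above both, EC above both, SC and EC above SMF, SMF above both, and the 2 other members, and the SMF columns are dark outside Efna1, Sema6d and their own 3 semaphorins.

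The number of members at an FPKM of at least 1 was 24 and 29 in the SC libraries, 28 to 29 in EC and 5 in each SMF library. In SMF these 5 were Sema3c, Sema4d, Sema6c, Sema6d and Efna1, all of them ligands. In the deposited FPKM, no plexin, Robo, Unc5 or Eph receptor reached 1 in any SMF library. Over all genes, 13294 and 16451 were at 1 FPKM or more in the SC libraries, 12640 to 14314 in EC and 7960 to 8116 in SMF. These counts were not repeated under other scalings of the libraries.

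Summed over a family, mean levels were highest in EC and lowest in SMF in each family but the netrins. Semaphorins summed to 57.6 and 38.0 FPKM in SC, 155 to 171 FPKM in EC and 19.7 to 24.2 FPKM in SMF. Plexins, their receptors, were closer in the sorted cells, with 55.2 and 68.3 FPKM in SC and 62.9 to 88.2 FPKM in EC, against 2.06 to 2.21 FPKM in SMF. Netrins were the family with its highest sums in SC, at 19.6 and 24.4 FPKM, against 7.53 to 10.9 FPKM in EC and 0.664 to 1.25 FPKM in SMF. EphB receptors summed to 6.99 and 9.73 FPKM in SC, 43.9 to 45.7 FPKM in EC and 0.102 to 0.395 FPKM in SMF.

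**Figure D2:**
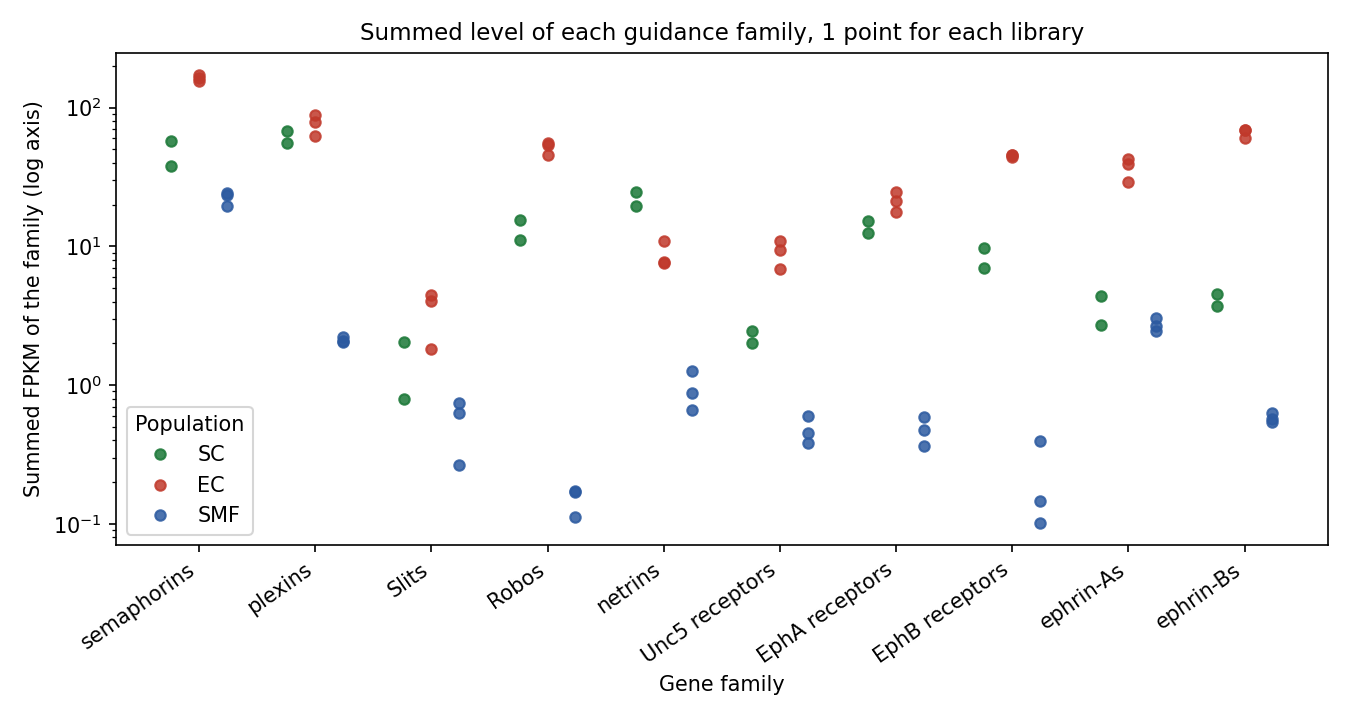
Summed FPKM of each guidance family on a log axis, with 1 point for each SC, EC and SMF library. EC libraries lie above SC and SMF libraries in semaphorins, Robos, Unc5 receptors, EphA and EphB receptors and both ephrin families, and SC libraries lie highest in netrins.

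Among the semaphorins, Sema7a, Sema6a and Sema3g led in EC. Sema7a, a semaphorin held on the membrane by a lipid anchor, was at 0.0960 and 0 FPKM in SC, 40.2, 32.3 and 44.8 FPKM in EC and 0.0757, 0.185 and 0.279 FPKM in SMF. The EC libraries did not overlap with any other, and SC fell by 5.25 ± 0.18 (SE) on the log2 scale relative to EC (adjusted p = 1.11e-06). EC were 5.08 ± 0.16 above SMF (adjusted p = 1.97e-07), while SC minus SMF was -0.17 (adjusted p = 0.426). Sema3g, a secreted ligand that acts through neuropilin, was at 1.00 and 0.919 FPKM in SC, 30.8, 46.0 and 29.9 FPKM in EC and 0.275, 0.343 and 0.137 FPKM in SMF. EC libraries stood far above the others, with -4.19 ± 0.21 for SC minus EC (adjusted p = 5.17e-06) and 4.84 ± 0.19 for EC minus SMF (adjusted p = 4.4e-07). The smaller excess of SC over SMF (0.65 ± 0.21, adjusted p = 0.0251) was lost without SC replicate 1 or 3 or SMF replicate 1 or 3, with adjusted p-values of 0.0543 to 0.0982, and under all 3 other scalings.

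Sema6a, a transmembrane ligand of Plxna2 and Plxna4, was the most abundant semaphorin of SC and the second of EC. Its levels were 34.8 and 15.4 FPKM in SC, 33.3, 40.3 and 37.3 FPKM in EC and 0.198, 0.235 and 0.293 FPKM in SMF. The SC libraries differed more from each other than the EC libraries did, and SC minus EC was -0.64 ± 0.30 (adjusted p = 0.132). Without SC replicate 1 that difference was -1.21 (adjusted p = 0.0033), and with scaling without the most abundant genes it was -0.99 (adjusted p = 0.0345), so the lack of a call rested on 1 library and on the scaling. Both sorted populations were above SMF, SC by 4.29 ± 0.30 (adjusted p = 1.48e-05) and EC by 4.93 ± 0.27 (adjusted p = 2.18e-06).

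The other semaphorins above both in EC spanned a range of levels. Sema4c, a transmembrane ligand of Plxnb2, was at 7.70 and 5.34 FPKM in SC, 16.5, 10.0 and 16.0 FPKM in EC and 0.285, 0.427 and 0.106 FPKM in SMF. No SC library reached the lowest EC library, and the differences were -1.0 ± 0.25 for SC minus EC (adjusted p = 0.0166), 2.55 ± 0.25 for SC minus SMF (adjusted p = 7.51e-05) and 3.55 ± 0.23 for EC minus SMF (adjusted p = 5.07e-06). Without SC replicate 3 the call against EC was lost (-0.77, adjusted p = 0.12). Sema6b was at 0.324 and 1.07 FPKM in SC, 10.0, 14.1 and 12.0 FPKM in EC and 0, 0.0456 and 0.147 FPKM in SMF. Its difference was -2.97 ± 0.23 for SC minus EC (adjusted p = 4.59e-05) and 3.61 ± 0.20 for EC minus SMF (adjusted p = 2.73e-06). The call for SC against SMF (0.64 ± 0.23, adjusted p = 0.0376) rested on the single SC library above 1 FPKM: the difference was 0.97 without SC replicate 1 and 0.32 without SC replicate 3 (adjusted p = 0.253). It was also lost without EC replicate 3 or any of the SMF libraries, with adjusted p-values of 0.0543 to 0.0954. Under all 3 other scalings it was lost too (adjusted p = 0.197 to 0.31), and with the TPM table (adjusted p = 0.106). The fit with no filter (adjusted p = 0.0738) and that of the compared groups alone (adjusted p = 0.0516) did not call it either.

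Sema6d, a transmembrane ligand of Plxna1, was at 2.71 and 1.91 FPKM in SC, 11.4, 7.96 and 15.5 FPKM in EC and 2.17, 1.52 and 1.47 FPKM in SMF. It was higher in EC than in the other populations, with -1.90 ± 0.27 for SC minus EC (adjusted p = 0.0012) and 2.18 ± 0.24 for EC minus SMF (adjusted p = 0.0001). SC minus SMF was 0.28 (adjusted p = 0.379) and turned to -0.78 with median-of-ratios scaling (adjusted p = 0.0329) and -0.93 with upper-quartile scaling (adjusted p = 0.0168). Sema3f was listed at 0 in every SMF library and was at 0.0997 and 0.302 FPKM in SC against 4.85 to 6.51 FPKM in EC. Sema3d was low throughout, at 0.173 and 0.297 FPKM in SC, 1.65 to 1.92 FPKM in EC and 0.0208 to 0.166 FPKM in SMF, and was called lower in SC than EC (-1.16, adjusted p = 0.0013). Sema5a was at 0.376 and 0.407 FPKM in SC, 1.73, 0.250 and 1.81 FPKM in EC and 0 to 0.223 FPKM in SMF, so that EC replicate 2 lay with the other populations. Its call for EC against SMF (0.96 ± 0.32, adjusted p = 0.0284) was lost without EC replicate 1 or 3 or any SMF library (adjusted p = 0.0513 to 0.0903), and without EC replicate 2 SC minus EC was -0.99 (adjusted p = 0.0044) instead of -0.61 (adjusted p = 0.222).

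Sema3b, a secreted semaphorin, was the only tested semaphorin above both in SC. It was at 3.57 and 3.84 FPKM in SC, 0.152, 0.239 and 0.157 FPKM in EC and 0.293, 0.204 and 0.290 FPKM in SMF. The SC libraries stood far above all others, and the difference was 1.99 ± 0.15 from EC (adjusted p = 4.86e-05) and 1.90 ± 0.15 from SMF (adjusted p = 2.96e-05). EC minus SMF was -0.09 (adjusted p = 0.565), but -0.40 with median-of-ratios (adjusted p = 0.0279) and -0.48 with upper-quartile scaling (adjusted p = 0.0147). Sema3b and Sema3f lie on the minus strand of chromosome 9 (chr9:107597674-107609241 and chr9:107681499-107710475 in GRCm38, the assembly that mm10 names), with 72.3 kb between them. Of this pair Sema3b was higher in SC and Sema3f in EC; genes that lie between them were not analysed here.

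Sema3a, the classical repellent of growth cones, was at 1.46 and 2.16 FPKM in SC, 0.836 to 1.13 FPKM in EC and 0.209 to 0.423 FPKM in SMF. It was called higher in SC than SMF (1.07, adjusted p = 0.0013), though not with median-of-ratios (0.39) or upper-quartile scaling (0.31). The call for EC against SMF (0.55, adjusted p = 0.0176) was lost without SMF replicate 1 (adjusted p = 0.0697) and under all 3 other scalings, and the difference was -0.075 under upper-quartile scaling (adjusted p = 0.695). SC minus EC was 0.52 (adjusted p = 0.0587), or 0.70 without SC replicate 1 (adjusted p = 0.0283). Sema4b was at 2.00 and 1.98 FPKM in SC, 0.826 to 1.33 FPKM in EC and 0.144 to 0.247 FPKM in SMF, with SC minus EC at 0.49 (adjusted p = 0.0594), or 0.55 without EC replicate 2 (adjusted p = 0.0428).

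The 3 semaphorins above both in SMF differed in kind. Sema3c, a secreted ligand that signals through neuropilins with Plxnd1, was at 0.792 and 0.314 FPKM in SC, 0.229, 0 and 0.388 FPKM in EC and 7.89, 11 and 8.94 FPKM in SMF. Fibre libraries stood apart from all others, with SC minus SMF at -2.73 ± 0.22 (adjusted p = 2.99e-05) and EC minus SMF at -3.09 ± 0.20 (adjusted p = 5.48e-06). Sema6c, a transmembrane semaphorin, was at 0.252 and 0.24 FPKM in SC, 0.184, 0.136 and 0.194 FPKM in EC and 4.21, 4.48 and 4.78 FPKM in SMF. Its differences were -2.14 ± 0.14 for SC minus SMF (adjusted p = 1.17e-05) and -2.23 ± 0.13 for EC minus SMF (adjusted p = 2.78e-06). Sema4d, the ligand of Plxnb1, had the smaller excess, at 1.14 and 1.62 FPKM in SC, 0.714, 0.243 and 0.799 FPKM in EC and 3.77, 4.74 and 5.75 FPKM in SMF. SC minus SMF was -1.26 ± 0.23 (adjusted p = 0.0018) and EC minus SMF was -1.86 ± 0.21 (adjusted p = 0.0001). Schwann and nerve markers summed to 30.9 to 37.7 FPKM in SC, 1.65 to 2.34 FPKM in EC and 1.98 to 3.97 FPKM in SMF, and tenocyte markers to 7.08 to 10.5, 4.79 to 11 and 2.06 to 31.9 FPKM in SC, EC and SMF; their part in these differences was not tested.

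The start regions of Sema7a and Sema6c are shown as those of a semaphorin high in EC and of a semaphorin high in SMF. Each is the 250 bases before the RefSeq start, 5′ to 3′ on the gene's strand, from RefSeq on GRCm38.p6. Capitals mark the E-box CAGCTG, which reads the same on both strands. The Sema7a window (chr9:57939862-57940111, plus strand) holds 1 such match and the first of the 2 Sema6c windows (chr3:95160170-95160419, plus strand) none, while the second Sema6c window, not printed, holds 1. An E-box was in 2 of the 6 windows of members above both in SMF and in 13% of all windows. These 6 windows belong to 3 genes.
Sema7a: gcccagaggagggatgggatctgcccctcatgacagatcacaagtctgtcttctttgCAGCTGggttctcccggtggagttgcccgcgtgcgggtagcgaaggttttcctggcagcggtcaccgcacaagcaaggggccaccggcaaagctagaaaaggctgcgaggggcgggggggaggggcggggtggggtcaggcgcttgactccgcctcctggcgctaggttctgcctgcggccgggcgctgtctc
Sema6c: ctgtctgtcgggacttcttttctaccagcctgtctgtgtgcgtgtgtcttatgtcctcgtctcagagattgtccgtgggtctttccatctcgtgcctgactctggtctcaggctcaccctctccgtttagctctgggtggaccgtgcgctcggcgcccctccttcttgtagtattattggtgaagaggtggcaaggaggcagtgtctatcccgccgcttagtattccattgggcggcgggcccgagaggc

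Of the tested plexins, the semaphorin receptors, Plxna1 and Plxna2 were not called between SC and EC, while Plxnb2, Plxna4 and Plxnd1 were. Plxnd1, which binds Sema3e directly and other class 3 semaphorins with a neuropilin, was the most abundant receptor among the members in SC and second to Robo4 in EC, at 22.4 and 28.5 FPKM in SC, 50.9, 31.4 and 57.9 FPKM in EC and 0.440, 0.422 and 0.256 FPKM in SMF. EC replicate 2 lay close to the higher SC library, and the difference of -0.82 ± 0.26 for SC minus EC was just called (adjusted p = 0.0421). That call was lost when any library other than EC replicate 2 was left out, with adjusted p-values of 0.0641 to 0.207, and with the TPM table (adjusted p = 0.0754). Against SMF the differences were 4.26 ± 0.26 for SC (adjusted p = 8.74e-06) and 5.08 ± 0.23 for EC (adjusted p = 9.95e-07). Plxnb2, a receptor of Sema4c and Sema4d, had its higher levels in SC, at 14.4 and 16.8 FPKM, against 5.02, 10.4 and 6.27 FPKM in EC and 0.176, 0.156 and 0.330 FPKM in SMF. SC minus EC was 1.06 ± 0.26 (adjusted p = 0.0153), a call lost without SC replicate 1 (adjusted p = 0.0583) or SC replicate 3 (adjusted p = 0.0996), with median-of-ratios scaling (0.85, adjusted p = 0.0611), with scaling without the most abundant genes (0.71, adjusted p = 0.135) and with the TPM table (adjusted p = 0.211). Plxnb2 was also above SMF in SC (3.76 ± 0.26, adjusted p = 1.5e-05) and in EC (2.70 ± 0.23, adjusted p = 2.79e-05).

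Plxna2, a receptor of Sema6a and of class 3 semaphorins, was abundant in both sorted populations, at 11.8 and 12.3 FPKM in SC, 16.4, 14.3 and 16.0 FPKM in EC and 0.452, 0.344 and 0.579 FPKM in SMF. Both SC libraries were below all EC libraries, but SC minus EC was -0.34 ± 0.14 (adjusted p = 0.0972) and became a call with median-of-ratios scaling (-0.49, adjusted p = 0.0372) and with scaling without the most abundant genes (-0.67, adjusted p = 0.0142). Plxna1, the most abundant plexin of SMF, was at 4.66 and 5.44 FPKM in SC, 3.68, 2.49 and 4.74 FPKM in EC and 0.718, 0.987 and 0.672 FPKM in SMF. It was higher than SMF in SC (1.76 ± 0.22, adjusted p = 0.0003) and in EC (1.35 ± 0.20, adjusted p = 0.0005), the call for EC being lost with upper-quartile scaling (0.28, adjusted p = 0.195). Plxna4 was the EC member of its class, at 0.155 and 0.401 FPKM in SC, 2.39 to 4.11 FPKM in EC and 0.173 to 0.381 FPKM in SMF, with -1.62 for SC minus EC (adjusted p = 0.0011). Plxna3, Plxnb1, Plxnb3 and Plxnc1 did not reach the filter. Plxnc1, a known receptor of Sema7a, was at 0.522 and 0.734 FPKM in SC, 0.103 to 0.413 FPKM in EC and at most 0.0445 FPKM in SMF, while Itgb1, an integrin subunit that Sema7a also binds, was at 87.8 and 99.1 FPKM in SC, 121 to 139.7 FPKM in EC and 17.9 to 20.6 FPKM in SMF.

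Coreceptors and other guidance receptors were read from a list of 23 genes, of which 14 were tested. SC had 8 higher and 4 lower than EC, where 21.2% and 16.4% of all genes were. In SC, 11 were higher than SMF and none lower (56.5% and 8.57% of all genes). EC had 9 higher and 1 lower than SMF, where 55.5% and 10.8% of all genes were, so that the share higher lay near that of all genes. Its median for SC minus EC was 1.24, where that of all genes was 0.11. Those lower in SC were Nrp1, Nrp2, Kdr and L1cam, which are partners of semaphorin receptors or, for Kdr, the main VEGF receptor. Nrp1 was at 5.75 and 5.32 FPKM in SC, 202, 139 and 208 FPKM in EC and 3.44, 2.48 and 3.07 FPKM in SMF, with SC minus EC at -4.79 ± 0.21 (adjusted p = 3.11e-06). Nrp2 was at 0.810 and 0.677 FPKM in SC, 30.7 to 39.1 FPKM in EC and 0.0877 to 0.290 FPKM in SMF, with SC minus EC at -4.34 ± 0.16 (adjusted p = 1.45e-06). On the other side, Plxdc2, Ptprs, Met and Neo1 were higher in SC. Neo1, a receptor of netrins and of repulsive guidance molecules, was at 7.86 and 8.24 FPKM in SC, 1.39 to 1.92 FPKM in EC and 4.10 to 4.31 FPKM in SMF. Met, the hepatocyte growth factor receptor that also joins plexin B complexes, was at 10.6 and 14.8 FPKM in SC, 0.879 to 3.20 FPKM in EC and 3.05 to 3.55 FPKM in SMF. Secreted class 3 semaphorins of EC thus stood beside abundant neuropilins in EC libraries, while SC and SMF had 5.75 FPKM of Nrp1 at most.

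The Robos, receptors of Slits, split between the sorted cells by paralog. Robo1, the Slit receptor best known from commissural axons, was at 10.6 and 14.1 FPKM in SC, 0.261, 0 and 0.261 FPKM in EC and 0.0560, 0.0686 and 0.0732 FPKM in SMF. Robo4, a Robo of blood vessels, was at 0.304 and 0.566 FPKM in SC, 52.3, 43.9 and 51.2 FPKM in EC and 0.113, 0.105 and 0 FPKM in SMF. SC and EC libraries did not overlap for either gene, while the EC range of Robo1 enclosed that of SMF. SC minus EC was 3.51 ± 0.19 for Robo1 (adjusted p = 7.11e-06) and -5.13 ± 0.16 for Robo4 (adjusted p = 7.83e-07). Of the summed FPKM of the 4 Robos, Robo1 made up 93.9% in SC and 0.319% in EC on average, and Robo4 3.21% in SC and 95.5% in EC. Against SMF, Robo1 was higher in SC (3.64 ± 0.19, adjusted p = 4.28e-06) and was not called in EC (0.13, adjusted p = 0.506), and Robo4 was 5.54 ± 0.14 higher in EC (adjusted p = 1.06e-07). The call of Robo4 for SC against SMF (0.42 ± 0.16, adjusted p = 0.046) concerned levels under 0.6 FPKM. It was lost without each library other than SC replicate 1 and EC replicate 2 (adjusted p = 0.0591 to 0.197) and under all 3 other scalings.

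Robo3 lies 2.02 kb from Robo4 on chromosome 9, on the opposite strand (chr9:37416045-37433436 beside chr9:37401902-37414023). It was at 0.0755 and 0.719 FPKM in SC, 0.958, 1.36 and 2.96 FPKM in EC and 0, 0 and 0.0392 FPKM in SMF. Among its deposited transcript levels, EC signal was mainly on ENSMUST00000167089, at 1.80, 1.54 and 5.17 FPKM in EC. That transcript has 5 exons at chr9:37415669-37418864. The listed Robo3 transcripts of 27 and 28 exons were at 0 in every library. Whether reads of Robo4 added to those of Robo3 was not tested. For the gene, EC were above SMF (1.38 ± 0.30, adjusted p = 0.004). SC minus EC was -0.95 ± 0.33 (adjusted p = 0.0562), or -1.17 without EC replicate 1 (adjusted p = 0.0334). It was also called lower in SC with the replicate block (adjusted p = 0.0425), the TPM table (-1.12, adjusted p = 0.041), median-of-ratios scaling (-0.83, adjusted p = 0.0451) and scaling without the most abundant genes (-0.96, adjusted p = 0.0458). Slit3 was the Slit that passed the filter, at 0.378 and 1.03 FPKM in SC, 3.79, 1.76 and 3.94 FPKM in EC and 0.152, 0.739 and 0.512 FPKM in SMF. It was called higher in EC than SMF (1.48 ± 0.29, adjusted p = 0.0024) and lower in SC than EC (-1.27 ± 0.32, adjusted p = 0.0171). The call against EC was lost without SC replicate 1 (-0.99, adjusted p = 0.124) and with the TPM table (-0.55, adjusted p = 0.355), and that against SMF with upper-quartile scaling (0.61, adjusted p = 0.101). EC replicate 2 had less of it than the other EC libraries, and pericyte and smooth muscle markers summed to 302 FPKM there against 616 and 747 FPKM in EC replicates 1 and 3; their part was not tested. Slit2 was at 0.366 and 0.682 FPKM in SC, 0.0624 to 0.325 FPKM in EC and 0.00749 to 0.0194 FPKM in SMF, and Slit1 at 0.342 FPKM at most in any library, so both stayed under the filter.

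The start of Robo1 is shown as that of the receptor with the largest log2 difference among the 3 receptors higher in SC than EC. The window is chr16:72662899-72663148 on the plus strand (RefSeq, GRCm38.p6), directly before the start of the 1 Robo1 transcript that the transcript table lists. It holds no match to the motifs searched and so no capitals.
Robo1: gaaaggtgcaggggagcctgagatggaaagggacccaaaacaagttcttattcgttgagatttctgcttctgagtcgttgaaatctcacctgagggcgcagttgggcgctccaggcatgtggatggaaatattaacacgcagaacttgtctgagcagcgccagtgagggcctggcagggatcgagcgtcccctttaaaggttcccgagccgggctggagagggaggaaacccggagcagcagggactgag

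**Figure D3:**
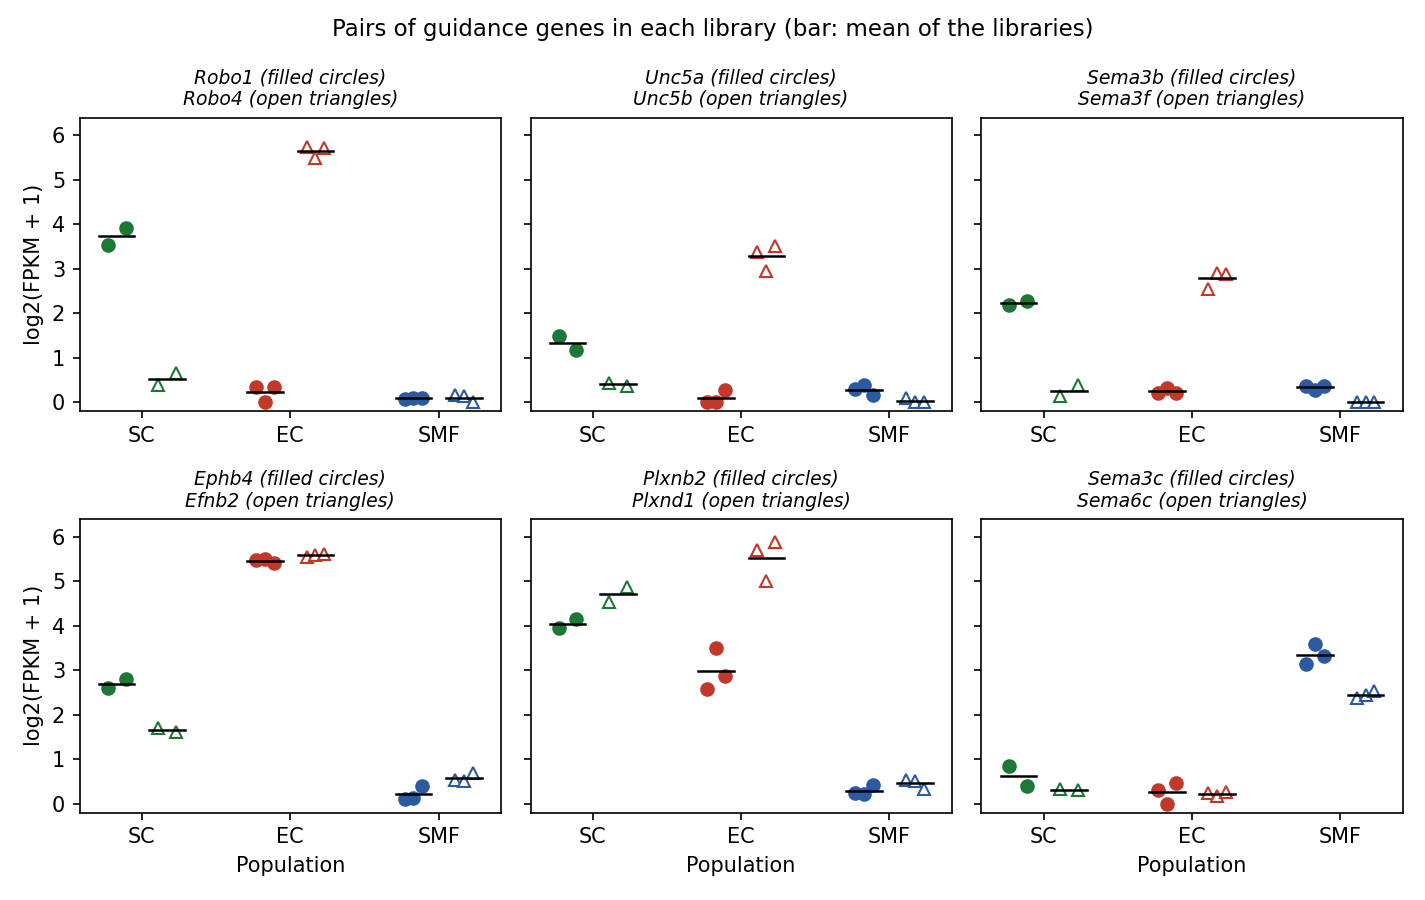
Level as log2(FPKM + 1) of 6 pairs of guidance genes in each library, by population (SC, EC, SMF from left to right), with filled circles for the first gene of a pair, open triangles for the second and bars for the mean. Robo1, Unc5a and Sema3b are highest in SC, Unc5a at low levels, where their paralogs Robo4, Unc5b and Sema3f are highest in EC. Ephb4 and Efnb2 are both high in EC, and Sema3c and Sema6c are high in SMF.

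Netrins were highest in SC. Ntn4, a netrin of basement membranes, was at 14.0 and 15.3 FPKM in SC, 3.42, 3.65 and 4.12 FPKM in EC and 0.338, 0.492 and 0.926 FPKM in SMF. All 3 populations were separate, with 1.73 ± 0.18 for SC minus EC (adjusted p = 0.0003), 3.32 ± 0.18 for SC minus SMF (adjusted p = 5.93e-06) and 1.59 ± 0.16 for EC minus SMF (adjusted p = 7.5e-05). Ntn1, the founding netrin, varied within populations, at 4.16 and 8.23 FPKM in SC, 3.48, 7.26 and 3.54 FPKM in EC and 0.326, 0.383 and 0.328 FPKM in SMF. SC and EC libraries overlapped (0.32 ± 0.33, adjusted p = 0.494), and both were above SMF, SC by 2.36 ± 0.33 (adjusted p = 0.0005) and EC by 2.04 ± 0.30 (adjusted p = 0.0005). Ntn5 was listed at 1.38 and 0.945 FPKM in SC and 0 elsewhere under one identifier, and at 0.630 FPKM in EC replicate 1 alone under the other, so neither was tested.

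The Unc5 netrin receptors also split by paralog, with Unc5a at low levels in SC. Unc5a was at 1.79 and 1.24 FPKM in SC, 0, 0 and 0.203 FPKM in EC and 0.219, 0.303 and 0.115 FPKM in SMF. The 3 Unc5a transcripts that the transcript table lists were at 0 in all 8 libraries, so the gene-level signal is on none of them. Unc5b, the Unc5 receptor of vessels, was at 0.342 and 0.292 FPKM in SC, 9.30, 6.77 and 10.5 FPKM in EC and 0.0583, 0 and 0 FPKM in SMF. Neither gene's SC and EC libraries overlapped, with SC minus EC at 1.23 ± 0.20 for Unc5a (adjusted p = 0.0024) and -2.88 ± 0.19 for Unc5b (adjusted p = 2.01e-05). The call of Unc5a against EC was lost in the test against a log2 change of 1 (adjusted p = 0.752). Unc5a was above SMF in SC (1.05 ± 0.20, adjusted p = 0.0025), a call lost with median-of-ratios and upper-quartile scaling, and Unc5b was above SMF in EC (3.25 ± 0.17, adjusted p = 1.78e-06). SC minus SMF for Unc5b was 0.37 (adjusted p = 0.121), or 0.37 with an adjusted p of 0.0397 when EC replicate 2 was left out of the common fit. Unc5a made up 67.4% of the summed Unc5 FPKM in SC and Unc5b 97.8% in EC. Unc5c, the most abundant Unc5 of SMF, was at 0.262 and 0.396 FPKM in SC, 0.0783 to 0.183 FPKM in EC and 0.171 to 0.293 FPKM in SMF, and Unc5d at 0.0779 FPKM at most, both under the filter.

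**Figure D4:**
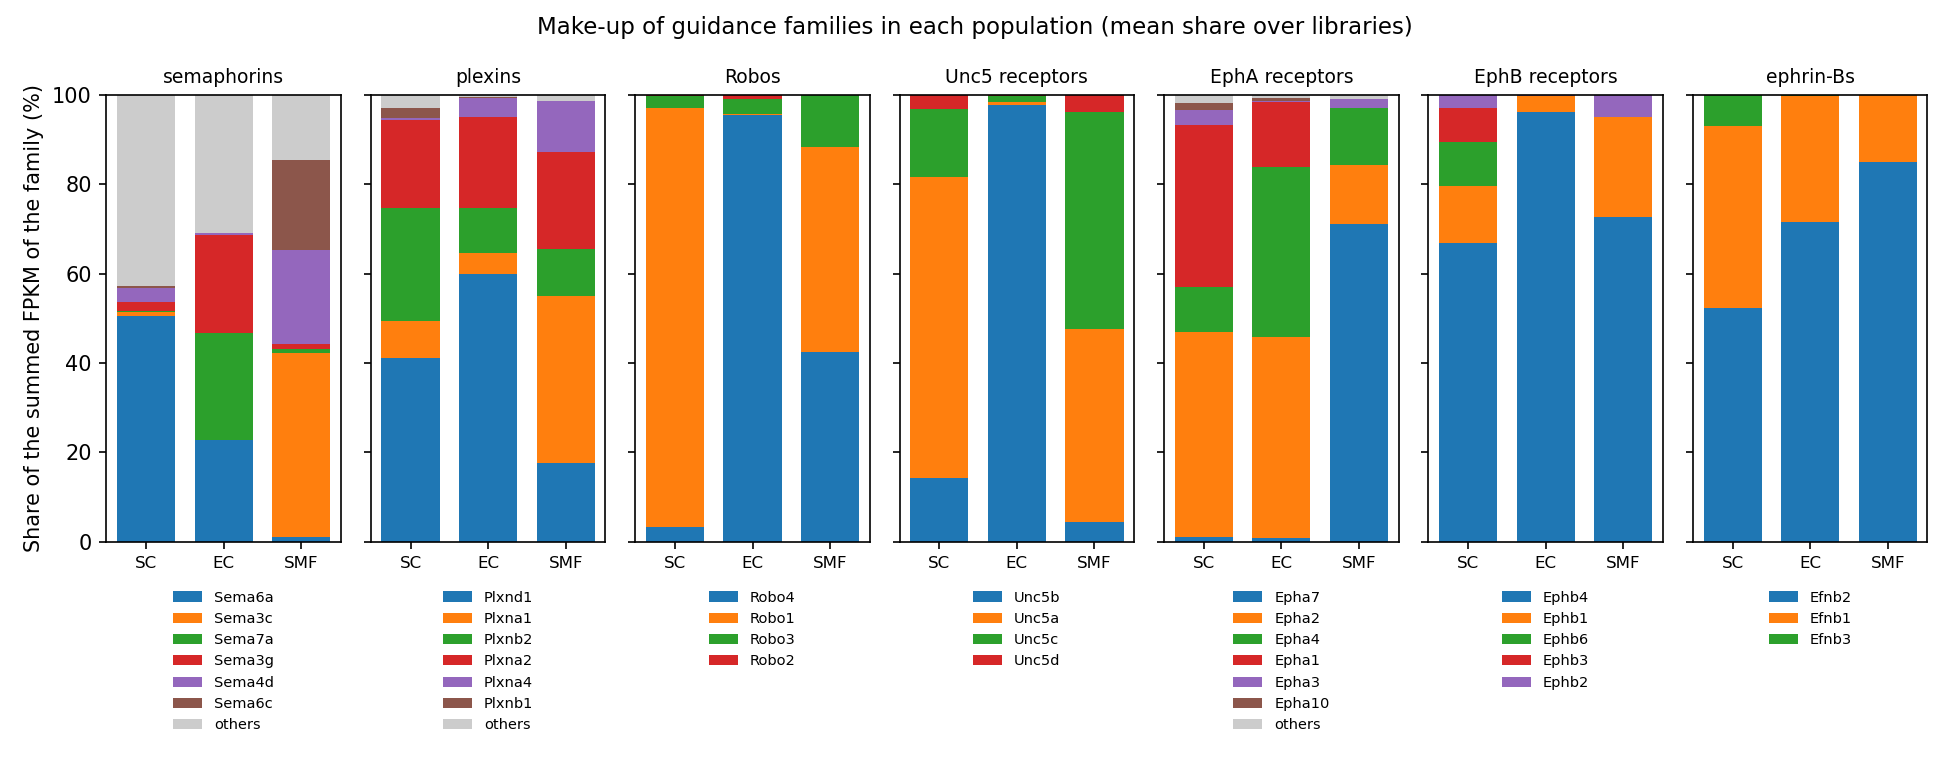
Mean share over libraries of each gene in the summed FPKM of its family, in percent, for SC, EC and SMF. Robo1 and Unc5a hold most of their family in SC, and Robo4 and Unc5b in EC. Ephb4 holds most of its family in SC (66.8%), EC (96.1%) and SMF (72.7%) alike. The SMF bars of the receptor families divide sums of at most 2.21 FPKM and rest on few fragments.

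Of the members above both in EC, Unc5b and Sema3d have a window with an ETS core, named for a family of transcription factors, and that of Unc5b is shown as the more abundant. The window is chr10:60831582-60831831 on the minus strand (RefSeq, GRCm38.p6), and capitals mark the match, TTCCGG, the reverse complement of CCGGAA.
Unc5b: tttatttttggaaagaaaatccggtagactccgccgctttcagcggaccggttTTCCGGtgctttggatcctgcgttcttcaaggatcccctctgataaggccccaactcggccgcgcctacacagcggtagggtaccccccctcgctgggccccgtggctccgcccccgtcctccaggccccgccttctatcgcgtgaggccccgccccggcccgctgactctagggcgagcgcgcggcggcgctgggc
RefSeq windows matched 56 of the 65 symbols, in 72 windows. The ETS core, CCGGAA on either strand, was in 2 of the 19 windows of members above both in EC (10.5%) and in 12.0% of all 32851 windows. The E-box CAGCTG was in 3 of these 19 windows (15.8%) and in 13% of all windows. The MEF2 core TAAAAATA, on either strand, was in none of the 72 member windows and in 2.45% of all. No window printed here matches several of these motifs. Such a match is a description of these 250 bases and not a binding site.

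Eph receptors and ephrins were led by an endothelial pair. Ephb4, the receptor that marks veins, was at 5.04 and 6.0 FPKM in SC, 43.9, 44.6 and 41.4 FPKM in EC and 0.0739, 0.0923 and 0.325 FPKM in SMF. Efnb2, its transmembrane ligand that marks arteries, was at 2.24 and 2.05 FPKM in SC, 46.0, 47.5 and 48.3 FPKM in EC and 0.445, 0.414 and 0.625 FPKM in SMF. In both, the 3 populations were separate and the EC libraries were close to each other. Ephb4 differed by -2.77 ± 0.16 for SC minus EC (adjusted p = 9.01e-06), 2.49 ± 0.16 for SC minus SMF (adjusted p = 9.32e-06) and 5.26 ± 0.14 for EC minus SMF (adjusted p = 1.13e-07). Efnb2 differed by -3.94 ± 0.13 for SC minus EC (adjusted p = 1.11e-06) and 5.02 ± 0.12 for EC minus SMF (adjusted p = 9.96e-08). Its call for SC against SMF (1.08 ± 0.13, adjusted p = 0.0002) was lost with median-of-ratios (0.29) and upper-quartile scaling (0.19).

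Among the EphA receptors, Epha2, the main receptor of Efna1, was shared by the sorted cells, at 5.73 and 6.97 FPKM in SC, 10.6, 6.65 and 11.6 FPKM in EC and 0.148, 0 and 0.0486 FPKM in SMF. SC and EC overlapped through EC replicate 2, and SC minus EC was -0.50 ± 0.23 (adjusted p = 0.129), or -0.72 without that library (adjusted p = 0.0119). It was also called with median-of-ratios scaling (-0.63, adjusted p = 0.0437) and scaling without the most abundant genes (-0.79, adjusted p = 0.0242). Epha2 was above SMF by 2.78 ± 0.23 in SC (adjusted p = 3.15e-05) and 3.29 ± 0.21 in EC (adjusted p = 4.67e-06). Epha4, which binds ephrins of both classes, was at 1.62 and 1.08 FPKM in SC, 6.95, 8.67 and 8.02 FPKM in EC and 0.0509, 0 and 0.163 FPKM in SMF. All 3 comparisons were called, with -1.92 ± 0.17 for SC minus EC (adjusted p = 9.72e-05), 1.13 ± 0.17 for SC minus SMF (adjusted p = 0.0007) and 3.05 ± 0.15 for EC minus SMF (adjusted p = 1.47e-06). In the gene table Epha1 was listed at 0 in every SMF library and was at 4.74 and 5.28 FPKM in SC and 2.80, 2.33 and 4.28 FPKM in EC. The transcript table lists 2 Epha1 transcripts, at 0 in every SC and EC library and with 1 of them at 0.0863 FPKM in SMF replicate 2, so the gene-level signal lies on neither. Both SC libraries were above all EC libraries, with SC minus EC at 0.56 ± 0.21 (adjusted p = 0.0666), or 0.75 without EC replicate 3 (adjusted p = 0.0113). Ephb1 was low, at 0.705 and 1.51 FPKM in SC, 1.16 to 2.24 FPKM in EC and 0.0130 to 0.0707 FPKM in SMF. It was called above SMF in EC (1.30, adjusted p = 0.0011) and in SC (0.98, adjusted p = 0.0081, or 0.0511 without SC replicate 3). Epha7 was the most abundant Eph receptor of SMF and still stayed under the filter, at 0.115 and 0.208 FPKM in SC, 0.0574 to 0.265 FPKM in EC and 0.243 to 0.364 FPKM in SMF.

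Of the ephrins, Efna1, Efnb1 and Efnb2 passed the filter and all 3 were above both in EC. Efnb1, a transmembrane ephrin encoded on the X chromosome, was at 1.94 and 1.43 FPKM in SC, 22.9, 13 and 20.9 FPKM in EC and 0.123, 0.127 and 0 FPKM in SMF. It differed by -2.86 ± 0.24 for SC minus EC (adjusted p = 7.69e-05), 1.31 ± 0.24 for SC minus SMF (adjusted p = 0.002) and 4.17 ± 0.22 for EC minus SMF (adjusted p = 1.79e-06). Efna1, a ligand held by a lipid anchor, was the ephrin that fibres also had, at 1.89 and 1.93 FPKM in SC, 41.0, 27.2 and 38.2 FPKM in EC and 2.55, 2.44 and 3.06 FPKM in SMF. The lowest SMF library was above both SC libraries, yet SC minus SMF was -0.34 ± 0.20 (adjusted p = 0.17). It became a call under median-of-ratios scaling (-1.46, adjusted p = 0.0003), upper-quartile scaling (-1.62, adjusted p = 0.0001) and scaling without the most abundant genes (-1.06, adjusted p = 0.0012). EC were above both other populations, with -3.63 ± 0.20 for SC minus EC (adjusted p = 8.04e-06) and 3.29 ± 0.18 for EC minus SMF (adjusted p = 2.11e-06). Efna3 and Efna4, its neighbours within 52.4 kb on chromosome 3, stayed at 0.762 FPKM or less in every library.

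The listed transcripts of Efna1 differed between the populations. In the deposited transcript FPKM, which are scaled apart from the gene table, the transcript of the minus strand that starts at position 89279645 of chromosome 3 (ENSMUST00000029566) was at 0 and 1.21 FPKM in SC, 50.7, 33.6 and 47.2 FPKM in EC and 0, 3.02 and 0 FPKM in SMF. The one with its start further upstream, at position 89281142 (ENSMUST00000118587), was at 2.11 and 1.07 FPKM in SC, listed at 0 in every EC library, and at 2.86, 0 and 3.43 FPKM in SMF. EC signal was therefore assigned to the downstream start alone, while SC and SMF libraries were split between both, with replicates that disagreed. The transcript table does not list every transcript of each member, so these values are not tested. Sema6d showed a change between EC replicates instead: ENSMUST00000077847 was at 15.0, 3.27 and 13 FPKM and ENSMUST00000076335 at 0, 7.64 and 7.83 FPKM in EC replicates 1, 2 and 3, where SC and SMF libraries had 1.90 to 3.60 FPKM of ENSMUST00000077847 and ENSMUST00000076335 listed at 0. In Robo4 too, EC replicate 1 was assigned mainly to ENSMUST00000102895 (29.3 FPKM) and ENSMUST00000115046 (20.1 FPKM) and the other EC libraries to ENSMUST00000156972 (41.4 and 50.8 FPKM).

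The start windows of the endothelial ephrin pair and both RefSeq windows of Efna1 are shown because they belong to the members with the highest EC levels of their families and to the transcripts that differ. Coordinates are chr8:8661243-8661492 (Efnb2, minus strand), chr5:137349859-137350108 (Ephb4, plus strand), chr3:89279646-89279895 (Efna1, downstream start, minus strand) and chr3:89280952-89281201 (Efna1, upstream RefSeq start, minus strand), all RefSeq on GRCm38.p6. The upstream Efna1 window takes the RefSeq start and so runs over the first bases of ENSMUST00000118587, which the transcript table starts further upstream. None holds a match to the motifs searched, so all are in lower case.
Efnb2: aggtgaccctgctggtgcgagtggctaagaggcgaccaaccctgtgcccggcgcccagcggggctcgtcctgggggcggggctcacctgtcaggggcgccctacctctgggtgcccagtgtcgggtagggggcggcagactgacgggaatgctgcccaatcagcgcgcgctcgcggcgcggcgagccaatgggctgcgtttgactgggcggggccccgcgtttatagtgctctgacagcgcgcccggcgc
Ephb4: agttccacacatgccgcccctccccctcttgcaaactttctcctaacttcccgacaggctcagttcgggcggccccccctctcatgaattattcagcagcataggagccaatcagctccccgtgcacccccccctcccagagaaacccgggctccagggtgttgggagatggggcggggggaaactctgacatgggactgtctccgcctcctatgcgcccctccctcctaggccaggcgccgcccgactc
Efna1 downstream: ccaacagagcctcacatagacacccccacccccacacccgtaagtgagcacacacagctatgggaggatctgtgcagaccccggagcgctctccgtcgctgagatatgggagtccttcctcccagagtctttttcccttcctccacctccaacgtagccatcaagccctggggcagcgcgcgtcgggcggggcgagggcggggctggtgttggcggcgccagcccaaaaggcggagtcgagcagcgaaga
Efna1 upstream: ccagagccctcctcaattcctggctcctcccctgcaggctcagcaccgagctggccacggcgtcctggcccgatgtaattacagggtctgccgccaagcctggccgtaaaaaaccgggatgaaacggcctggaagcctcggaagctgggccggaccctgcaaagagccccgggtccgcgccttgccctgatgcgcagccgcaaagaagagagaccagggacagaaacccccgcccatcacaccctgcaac
The GC content was 72.0% for Efnb2, 64.0% for Ephb4 and 64.4% and 64.8% for the downstream and upstream Efna1 windows, against a median of 52.4% over all windows and 64.2% over those of the members.

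**Figure D5:**
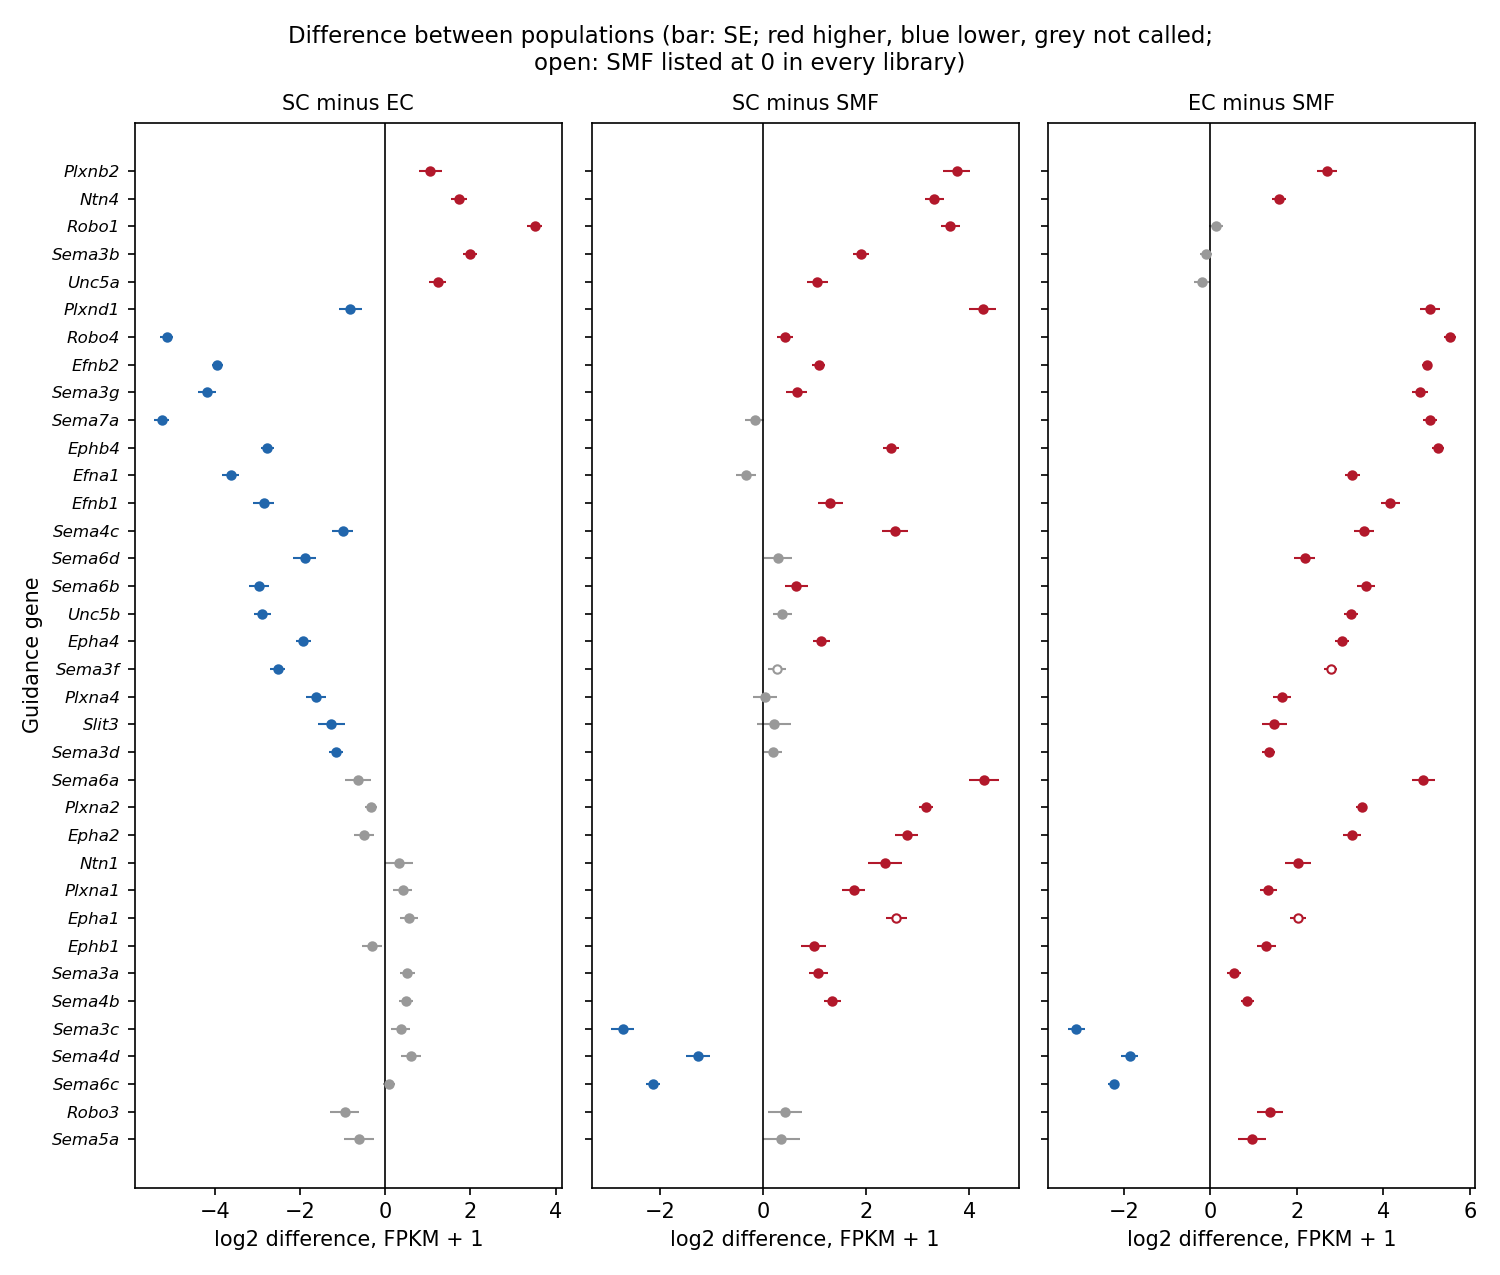
Log2 difference on the FPKM + 1 scale (point) with its SE (bar) for the 36 tested members, for SC minus EC, SC minus SMF and EC minus SMF, coloured by the limma call, with open points for Epha1 and Sema3f against SMF, where they are listed at 0. Robo4 and Sema7a lie lowest and Robo1 highest for SC minus EC, and Sema3c, Sema4d and Sema6c alone lie on the lower side in both comparisons with SMF.

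Ligands and receptors listed as partners were set side by side in 48 pairs, counted where both means reached an FPKM of at least 1. Direct binding within a pair was not tested. With receptors in SC, the count was 13 pairs for ligands from SC, 12 for ligands from EC and 6 for ligands from SMF. With receptors in EC, it was 15 pairs for ligands from SC, 14 for ligands from EC and 5 for ligands from SMF. For receptors in SMF it was 0 whichever population gave the ligand, because no receptor mean reached the cut there. The highest receptor mean in SMF among these pairs was 0.792 FPKM, for Plxna1. These pair counts were not repeated under other scalings of the libraries. A pair present by this measure was Slit3 with Robo1, from EC to SC, at mean levels of 3.16 and 12.4 FPKM. Sema3c with Plxnd1 was counted from SMF to SC (9.28 and 25.4 FPKM) and from SMF to EC (9.28 and 46.7 FPKM). Ntn4 with Unc5b was counted from SC to EC (14.6 and 8.85 FPKM). These are RNA levels of separate populations and measure no contact or signal.

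Other guidance ligands were read from a list of 28 genes, of which 11 were tested. SC had 5 higher and 2 lower than EC (21.2% and 16.4% of all genes), and 7 higher and 1 lower than SMF (56.5% and 8.57% of all genes). EC had 6 higher and 3 lower than SMF (55.5% and 10.8% of all genes). Against SMF the shares higher and the medians, 1.07 in SC and 0.88 in EC, lay near those of all genes, whose medians were 0.93 and 0.85. Rgmb and Rgma, repulsive guidance molecules that bind Neo1, averaged 19.6 ± 6.6 and 18.1 ± 2.7 FPKM in SC, 8.25 ± 0.68 and 1.64 ± 0.78 FPKM in EC and 2.32 ± 0.20 and 3.01 ± 0.36 FPKM in SMF (SD, n = 2, 3 and 3). Flrt1, a membrane protein of a family that binds Unc5 receptors, was at 20.0 and 14.9 FPKM in SC, 0.114 to 0.136 FPKM in EC and 0.883 to 1.14 FPKM in SMF. Hfe2, the muscle relative of Rgma also called hemojuvelin, was at 0.233 and 1.74 FPKM in SC, listed at 0 in EC and at 84.8 to 99.2 FPKM in SMF. Reln and Ntng2 were the ligands of this list lower in SC than EC, with log2 differences of -2.11 (adjusted p = 0.0013) and -1.10 (adjusted p = 0.0087).

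Intracellular partners were counted in 3 further lists. Their counts stand against all genes tested, of which 21.2% were higher and 16.4% lower in SC than EC, with a median of 0.11. Against SMF, 56.5% were higher and 8.57% lower in SC, and 55.5% and 10.8% in EC. Of 25 tested semaphorin and plexin effectors, SC had 7 higher and 10 lower than EC, with a median of -0.46; SC had 19 higher and 2 lower than SMF, and EC 19 higher and 1 lower than SMF. Among those lower in SC were Rras, a small GTPase that plexins inactivate (13.4 and 12.2 FPKM in SC, 37.2 to 51.4 FPKM in EC and 1.35 to 3.34 FPKM in SMF), and Dpysl2, a collapsin response mediator (17.0 and 17.4 FPKM in SC, 35.9 to 44.4 FPKM in EC and 0.391 to 0.685 FPKM in SMF). Rnd3, a GTPase of the family that binds plexins, was higher in SC, at 52.4 and 45.1 FPKM in SC, 4.0 to 6.58 FPKM in EC and 2.07 to 6.18 FPKM in SMF. Of 29 tested Eph and ephrin effectors, SC had 5 higher and 16 lower than EC, with a median of -0.61; SC had 23 higher and 1 lower than SMF, and EC 25 higher and 1 lower. The share higher in SC than EC was near that of all genes. Tns1 was lower in SC, at 2.83 and 3.60 FPKM, against 40.8 to 49.2 FPKM in EC and 5.21 to 5.48 FPKM in SMF, and so was Itsn2, at 7.54 and 6.29 FPKM, against 31.4 to 34.9 FPKM in EC and 1.28 to 1.33 FPKM in SMF. Grb10, an adaptor, was higher in SC, at 35.7 and 45.5 FPKM, against 11 to 15 FPKM in EC and 2.25 to 2.71 FPKM in SMF.

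Of 30 tested Slit, Robo and netrin effectors, SC had 5 higher and 13 lower than EC, with a median of -0.32; SC had 25 higher and 1 lower than SMF, and EC 25 higher and 4 lower. Here too the share higher in SC than EC was near that of all genes. Ablim3, an actin-binding relative of the netrin effector unc-115 of worms, was at 0.479 and 0.425 FPKM in SC, 59.6 to 78.1 FPKM in EC and 0 to 0.244 FPKM in SMF. Rac1, the GTPase that drives protrusion, was at 21.5 and 24.0 FPKM in SC, 41.3 to 48.1 FPKM in EC and 10.3 to 12.5 FPKM in SMF. Sdc4, a heparan sulphate carrier that also marks satellite cells, was at 352 and 299.7 FPKM in SC, 0.968 to 3.38 FPKM in EC and 13 to 17.9 FPKM in SMF. These lists were chosen with earlier results known, share genes with one another and are described by counts alone.

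The EC libraries were not alike in other cell types. In EC replicate 2, 8 of 9 pericyte and smooth muscle markers, 6 of 8 fibro-adipogenic progenitor markers and 3 of 3 immune markers whose EC mean was 1 FPKM or more were below both other EC libraries, with median log2 differences of -1.49, -1.31 and -2.08 from their mean. Immune markers summed to 13 to 18.5 FPKM in SC, 44.5, 1.26 and 57.7 FPKM in EC replicates 1, 2 and 3 and 0.250 to 0.743 FPKM in SMF. Pericyte and smooth muscle markers summed to 264 to 326 FPKM in SC, 302 to 747 FPKM in EC and 29.2 to 30.6 FPKM in SMF, and fibro-adipogenic progenitor markers to 260 to 269 FPKM in SC, 173 to 240 FPKM in EC and 23.1 to 46.8 FPKM in SMF. Of the 17 members above both in EC, 9 were below both other EC libraries in EC replicate 2 and 7 above both. Of all 13387 tested genes with an EC mean of 1 FPKM or more, 6559 were below both and 3562 above both. Of 5 fibre markers with such a mean, 4 were below both and 1 above both, and the 1 satellite cell marker was below both. The endothelial, lymphatic endothelial and tenocyte lists went the other way. Of 7 endothelial markers 2 were below both and 4 above both. Of 5 lymphatic endothelial markers 1 was below both and 3 above both, and 2 of 2 tenocyte markers were above both. Leaving out EC replicate 2 lost none of the 81 calls of members. Carry-over of EC into SC can be set beside the members too: the 7 endothelial markers had 0.280% to 12.4% of their EC mean in SC (median 1.34%), and the 17 members above both in EC had 0.123% to 54.4% (median 8.92%). The part of other cell types in the members' differences was not tested.

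The 30 rows under the filter had highest levels between 0.0779 and 2.25 FPKM, with a median of 0.573 FPKM. Of these, 6 reached 1 FPKM in a single library: Plxna3, Plxnb1, Ephb6, Efna2 and Ntn5 in SC and Sema5b in EC. Plxnb1, a receptor of Sema4d, was at 0.872 and 1.95 FPKM in SC, 0.0632 to 0.374 FPKM in EC and 0 in SMF. In SMF, 18 of the 30 rows were listed at 0 in every library. The rest of these rows were Epha3, Epha5, Epha6, Epha7, Epha8, Epha10, Ephb2, Ephb3, Efna3, Efna4, Efna5, Efnb3, Robo2, Slit1, Slit2, Unc5c, Unc5d, Plxnb3, Plxnc1, Sema3e, Sema4a, Sema4f, Sema4g and the second Ntn5 row. At this depth a gene of 1 kb below about 1 fragment could not be told from 0.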

How the data were processed

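Gene levels are the FPKM that the authors deposited for 36048 Ensembl genes in 8 libraries; their TPM table (46435 loci) and their transcript table with FPKM and read coverage, a signal per transcript, were also used as deposited. The deposited specificity score of the TPM table was not used. Reads had been handled with FastQC, Trimmomatic, HISAT2, StringTie and bedtools on mm10, per the submitters' processing notes. For versions, settings and whether strand was used in assigning reads: not given in the sources used here, so overlapping genes on opposite strands may share reads. From these files, log2(FPKM + 1) of genes at 1 FPKM or more in at least 2 libraries was fitted with limma 3.58.1 (R 4.3.3, mean-variance trend, 3 group means, all 8 libraries, no covariate), two-sided, with calls at a Benjamini-Hochberg adjusted p under 0.05; the calculation was tested on simulated data. FPKM is relative to all fragments, so abundant fibre RNAs lower other genes in SMF, and the pseudocount understates changes of low genes. Tables were handled with Python 3.11.15 and pandas 2.3.3.

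Members and lists were chosen with earlier results of these data known. Full values are given for members with the 3 highest means of a population in a family group and for those called in all 3 comparisons; other members are named if tested, or as under the filter. Of other lists, up to 4 called members in the main direction and 2 in the other are named by mean level; Itgb1, Hfe2 and the members of marker lists were named beside results they bear on. Alternatives were 3 other scalings (median-of-ratios, upper-quartile, and totals that leave out each group's 50 most abundant genes), a pseudocount of 0.1, no filter, a filter at 5 FPKM, the TPM table, a test against a log2 change of 1, a fit of the compared groups alone, a replicate block and leaving out each library. Promoter sequences are RefSeq GRCm38.p6; no protein sequences were used here.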

Additional observations from a re-analysis of the deposited data

How the results depend on the processing

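Of 81 called member and comparison pairs, 54 kept their direction and call in every alternative run for them (the filter at 5 FPKM tested 55 of the 81) and 27 lost the call in at least 1, all of them at least in the test against a log2 change of 1. Of 27 uncalled pairs, 15 were called under at least 1 alternative. Among values that turned were Sema3a for EC against SMF (0.55, and -0.075 with upper-quartile scaling) and Sema6d for SC against SMF (0.28, and -0.78 with median-of-ratios and -0.93 with upper-quartile scaling). The cause was not tested.

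The 22 members called for SC against EC became 14 in the test against a log2 change of 1 (3 higher, 11 lower), and the 5 higher became 3 with the filter at 5 FPKM and 10 with no filter, which tests 66 rows. The 26 for SC against SMF became 15 (13 higher) in that test and 17 with the stricter filter, where 22 members remain; the 3 lower became 1 with that filter and 5 with median-of-ratios and upper-quartile scaling, Efna1 and Sema6d being added. The 33 for EC against SMF became 21 with the stricter filter, and the 3 lower 1 there and 5 with upper-quartile scaling. Leaving out 1 library gave 19 to 25 calls for SC against EC (4 to 6 higher, 15 to 19 lower), 22 to 27 for SC against SMF (19 to 24 higher, 3 lower) and 31 to 33 for EC against SMF (28 to 30 higher, 3 lower).

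Median-of-ratios, upper-quartile and abundant-gene scaling moved the median of all genes to -0.01, 0.06 and -0.12 for SC minus EC, 0.21, 0.13 and 0.44 for SC minus SMF and 0.20, 0.03 and 0.55 for EC minus SMF. The share of all calls that were higher was 56.3% for SC against EC and 47.4%, 54.7% and 39.0% under these scalings, 86.8% for SC against SMF and 55.1%, 49.6% and 69.2%, and 83.7% for EC against SMF and 56.6%, 48.3% and 72.8%. Among members, higher calls were 88.5% for SC against SMF and 77.3%, 77.3% and 83.3%.

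Same-numbered libraries correlated at -0.0581 to 0.0906 in their deviations from group means. With 2 SC libraries those deviations mirror each other, so this check cannot exclude pairing, and whether the numbers pair samples is not known. With the replicate block, 23 members were called for SC against EC, 25 for SC against SMF and 33 for EC against SMF. With 2 SC libraries and at most a few fragments behind levels under about 0.3 FPKM, low members are the least certain.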
